A study of Mus musculus with 39 samples.

Results

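The genes of IL-6, Socs3 and Stat3 signalling were followed in the lungs of mice exposed to mainstream tobacco smoke (MTS). The set comprised Il6, Il6ra, Il6st, Lif, Osmr, Stat3, Socs1, Socs3, Bcl3 and Pim1. Every probe whose symbol in the array's probe annotation was one of these 10 names was taken, which gave 10 probes for 9 genes among 20868 gene probes for 16879 genes. Il6st had 2 probes, and no annotation entry named Lif, so Lif was not analysed here. All 10 probes passed the filter on dim probes, as did 17560 probes in all (84.1%).

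RNA of part of the left lung lobe was measured in 39 male C57B1/CBA mice, 1 mouse per array, in 8 groups of 5 mice except 12 week smoke, which held 4. Their labelled age, 8-10 week, is that of mice put to exposure in the study. Age at sampling was therefore higher and would differ with the duration and the break. Mice of 6 week smoke and 12 week smoke breathed MTS from 2 cigarettes daily on 5 days a week for the time in their name, and mice of 6 week sham and 12 week sham were held in restrainers only. Mice of 6 week smoke and break and of 12 week smoke and break then spent 6 weeks without MTS, and 6 week break sham and 12 week break sham are their restrained controls. All 8 groups are labelled 3 h after exposure, the break groups included. Each array compared Cy5-labelled lung RNA with Cy3-labelled universal mouse reference RNA. The level of a gene is given as its log2 ratio of lung to reference. A log2 fold change is a difference of such ratios between groups from a limma model with the 8 groups and 5 exposure runs. The runs were read here from the sequence of the exposure labels, in which every array had its own place. A run is thus a stretch of that sequence. A probe rose or fell where its p, adjusted over all 17560 probes, was under 0.05. The mice are separate animals, and the mouse numbers are only names.

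Interleukin-6 binds its receptor chain Il6ra, and the complex engages Il6st, the signal-transducing chain shared by most cytokines of the family. The Janus kinases bound to Il6st phosphorylate the transcription factor Stat3, which induces its own brakes, above all Socs3, and genes such as Bcl3 and Pim1. In lung, macrophages, fibroblasts, epithelium and endothelium can all secrete interleukin-6, and the pathway is known for its part in inflammation and in cell survival.

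The arrays differed in brightness, with a median Cy5 signal of 268 to 1532 per array, 2.20 to 8.94 times the local background. The threshold of an array, set from its negative control spots, was 122 to 450 units of Cy5 signal. Of 8 lung epithelium markers, 7 were above it in all 39 arrays. In the array labelled 6 week sham mouse 2, the smoke-induced genes Cyp1a1 and Cyp1b1 had log2 ratios of 6.46 and 2.00. These lay within the 9 arrays of 6 and 12 week smoke (5.07 to 8.06 and 1.47 to 2.32) and outside the other 29 arrays (0.45 to 2.81 and -1.74 to -0.28). In the sequence of exposure labels this array held place 36, between 6 week break sham and 12 week sham of run 5. In runs 1 to 4 the array between these groups was one of 12 week smoke (places 5, 13, 21 and 28). Whether the label is right was not tested. The array kept its label, and log2 fold changes and counts for 6 week smoke against 6 week sham are given with and without it.

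After 12 weeks of MTS, 3 of the 10 probes rose against 12 week sham, those of Il6, Socs3 and Bcl3, and none fell. Over all probes 0.376% rose and 0.0569% fell. The receptor probes, Stat3, Socs1 and Pim1 did not pass. After 6 weeks of MTS no probe of the set passed, and Bcl3 passed once the array labelled 6 week sham mouse 2 was left out. After the break no probe of the set passed at either duration. Since Il6, Socs3 and Bcl3 were put in the set with earlier results of these arrays known, their calls are descriptions of these arrays and no independent evidence.

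Promoters of the 3 genes that rose at 12 weeks are shown because all 3 were higher in the 4 arrays of 12 week smoke than in 12 week sham. That is the comparison in which they were called. The sequences are from RefSeq on GRCm38.p6, from 250 bases before to 50 after the gene start, and capitals mark the motifs found. For Il6 (chr5:30012864-30013163, plus strand) these are AP-1, C/EBP and NF-kappaB motifs, for Socs3 (chr11:117969317-117969616, minus strand) a Stat motif and for Bcl3 (chr7:19822706-19823005, minus strand) an NF-kappaB motif.
Il6: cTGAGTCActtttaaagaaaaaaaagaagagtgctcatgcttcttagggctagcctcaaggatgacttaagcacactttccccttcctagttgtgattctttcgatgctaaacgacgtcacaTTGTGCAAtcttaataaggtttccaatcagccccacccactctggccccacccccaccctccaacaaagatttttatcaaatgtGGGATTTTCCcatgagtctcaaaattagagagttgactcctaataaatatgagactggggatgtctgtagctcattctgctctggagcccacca
Socs3: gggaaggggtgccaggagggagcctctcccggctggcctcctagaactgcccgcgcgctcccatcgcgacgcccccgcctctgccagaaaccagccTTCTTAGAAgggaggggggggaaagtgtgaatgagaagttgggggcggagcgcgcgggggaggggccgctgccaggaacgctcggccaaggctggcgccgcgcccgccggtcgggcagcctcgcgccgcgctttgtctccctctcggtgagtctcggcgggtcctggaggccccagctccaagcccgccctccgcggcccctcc
Bcl3: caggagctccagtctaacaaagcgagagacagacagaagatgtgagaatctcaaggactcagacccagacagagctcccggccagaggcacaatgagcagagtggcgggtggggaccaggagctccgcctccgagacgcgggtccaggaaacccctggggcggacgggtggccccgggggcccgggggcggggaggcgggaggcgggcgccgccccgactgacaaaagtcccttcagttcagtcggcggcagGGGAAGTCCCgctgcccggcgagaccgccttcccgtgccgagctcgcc

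On both strands, 7 motifs were searched in the promoter windows. The 10 genes, Lif included, had 11 windows, since Pim1 had 2. The Stat motif TTCNNNGAA, which Stat3 dimers recognise, was in 1 of the 11 windows, that of Socs3 (TTCTTAGAA, -154 to -146 from the gene start), and in 8.3% of 32851 windows of all genes. The AP-1 motif TGANTCA was in the windows of Il6 (-249 to -243), Lif and Osmr, and in 7.81% of all. The C/EBP motif TTGCNNAA was in the window of Il6 (TTGTGCAA, on the minus strand at -128 to -121) and in 10.8% of all. NF-kappaB motifs were in the windows of Il6 (GGGATTTTCC, -44 to -35), Lif and Bcl3 (GGGAAGTCCC, 3 to 12) and in 8.46% of all. The core of the AhR motif, GCGTG, was in the windows of Il6ra, Lif, Osmr and Stat3 and in 32.4% of all. The antioxidant motif TGACNNNGC was in the window of Lif and in 12.4% of all, and the cyclic AMP motif TGACGTCA was in none of the 11 and in 1.79% of all. No match overlapped another, and a match describes letters in a window, not binding.

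Il6, the ligand, was higher in lungs after 12 weeks of MTS than in 12 week sham. Its log2 ratios in 12 week smoke mice 1 to 4 were -0.27, -0.041, 0.063 and -0.89. In 12 week sham mice 1 to 5 they were -2.34, -1.96, -1.02, -2.54 and -1.64. All 4 smoke mice lay above all 5 sham mice, with mouse 4 of 12 week smoke the closest to sham mouse 3. Over all probes 1.99% were higher without overlap in this comparison, and the 3 probes that rose were also the 3 of the set without overlap. The fold change of Il6 was 3.09 (log2 1.63, standard error 0.30, adjusted p = 0.00383, limma). Within the 4 exposure runs that held both groups, Il6 was higher in smoke by 2.07, 1.08, 0.75 and 1.92 in runs 1 to 4. In whole lung, more cells that express a gene and more of its RNA per cell cannot be told apart.

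**Figure D1:**
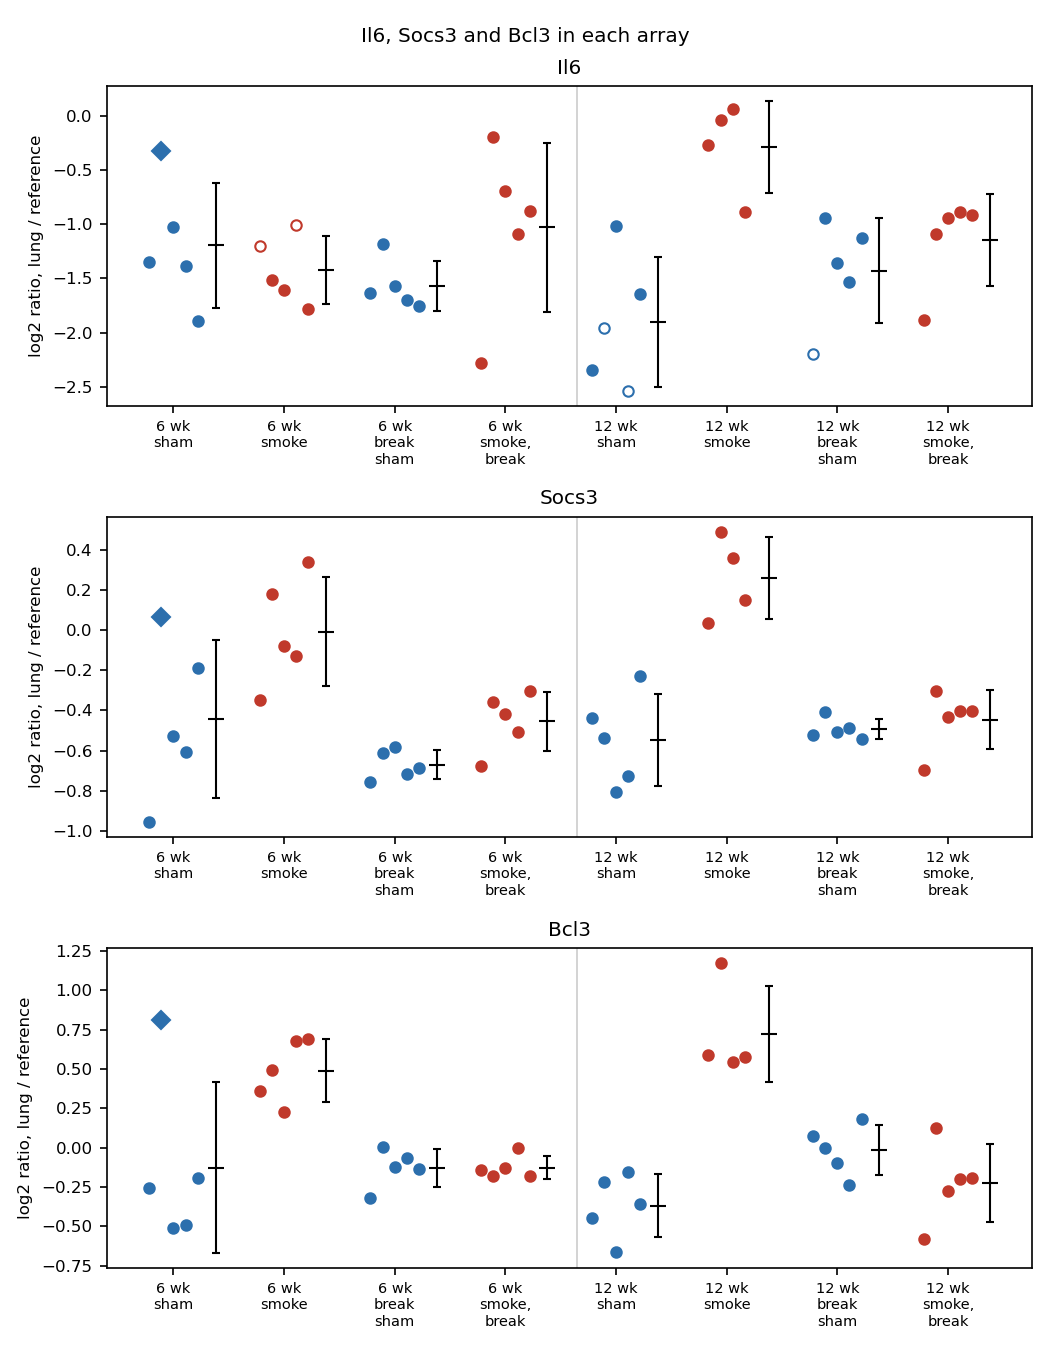
Il6, Socs3 and Bcl3 in the 39 arrays, as log2 ratio of lung over reference (y axes), by group (x axes). Blue points are sham and red points smoke mice, open points lie below the array's Cy5 threshold, a diamond stands for the array labelled 6 week sham mouse 2, and black bars give mean and SD. For each gene no array of 12 week sham reaches the lowest of 12 week smoke.

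The Il6 spot was near background on many arrays. Its Cy5 signal was above the threshold in 34 of 39 arrays and was 0.88 to 3.76 times the threshold, with a median of 1.64. It was above in 4 of 4 arrays of 12 week smoke, 3 of 5 of 12 week sham, 3 of 5 of 6 week smoke and 4 of 5 of 12 week break sham, and in all 5 arrays of each other group. The 5 arrays below it were 12 week sham mice 2 and 4, 6 week smoke mice 1 and 4 and 12 week break sham mouse 1. Raw Cy5 signals of the Il6 spot were 1291, 576.5, 981 and 262 in 12 week smoke and 561, 179.5, 265, 142 and 579 in 12 week sham. These raw signals, which are not scaled between arrays, overlapped between the groups. The Cy3 signal of Il6 was above its threshold in all 39 arrays.

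**Figure D2:**
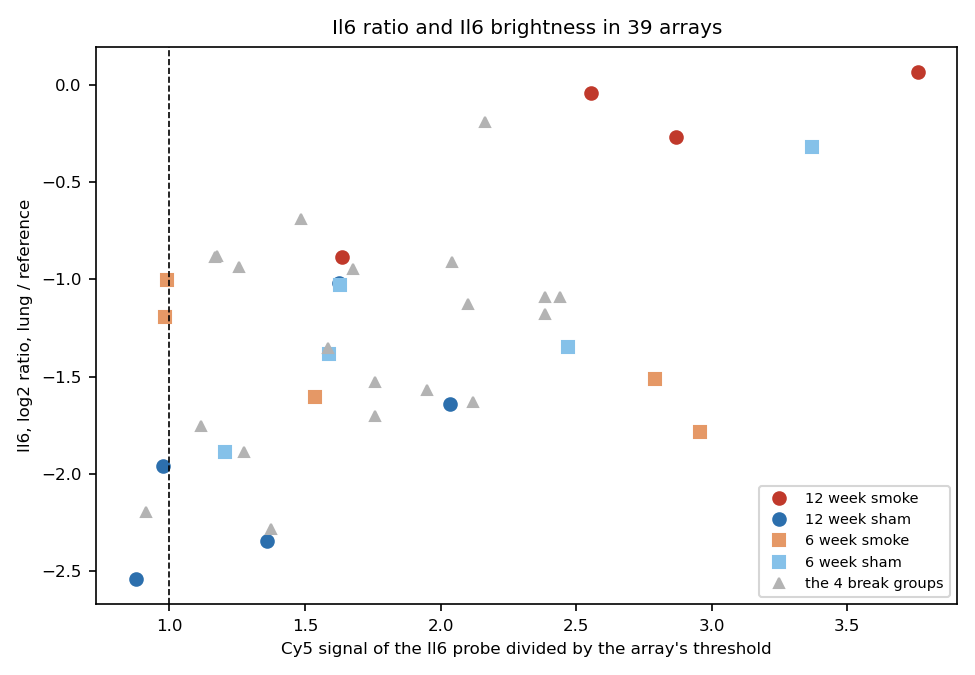
Log2 ratio of Il6 (y axis) against the Cy5 signal of the Il6 probe divided by the array's threshold (x axis) in 39 arrays, 1 point per array, with the threshold as a dashed line. The 4 arrays of 12 week smoke lie at 1.64 to 3.76 times the threshold, and 2 of the 5 arrays of 12 week sham lie below it.

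The call of Il6 at 12 weeks held in 12 of 14 other settings, and it was lost with spots marked as poor left out. The scanner software had marked the Il6 spot as poor in 3 of the 5 arrays of 12 week sham and in none of 12 week smoke. With marked spots left out, the log2 fold change was 0.98 (adjusted p = 0.0843, limma) and did not pass. When only the 2 groups compared were fitted, it was 1.46 (adjusted p = 0.232), and Socs3 and Bcl3 did not pass either (adjusted p = 0.348 and 0.0510). With any 1 array of these groups left out it was 1.46 to 1.84 and passed each time (adjusted p of 0.0014 to 0.0450).

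At 6 weeks Il6 did not pass. Its log2 ratios were -1.20, -1.51, -1.60, -1.005 and -1.78 in 6 week smoke and -1.35, -0.32, -1.03, -1.38 and -1.89 in 6 week sham, in the order of the mouse numbers. The highest value, -0.32, was that of the array labelled 6 week sham mouse 2. It lay above 6 week smoke and within 12 week smoke (-0.89 to 0.063), and 6 week smoke and break reached -0.19. The log2 fold change was -0.27 (95% confidence interval -0.85 to 0.31, adjusted p = 0.859, limma) and -0.074 without that array (-0.66 to 0.51). By group mean, Il6 was highest in 12 week smoke (-0.28 ± 0.43, SD, n = 4), then in 6 week smoke and break (-1.03 ± 0.78, SD, n = 5), 12 week smoke and break (-1.14), 6 week sham (-1.19, or -1.41 without that array), 6 week smoke (-1.42), 12 week break sham (-1.43), 6 week break sham (-1.57) and 12 week sham (-1.90). Each pair of neighbours in this order overlapped array by array. Among the 4 sham groups alone Il6 did not differ past the threshold (adjusted p = 0.485, and 0.632 without that array, limma), where 0.421% of all probes did.

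The receptor chains showed no change that passed against the matched sham group. Il6ra, the chain that binds interleukin-6, had group means of -0.22 to 0.017 and log2 fold changes of 0.037 at 12 weeks (standard error 0.13, limma's adjusted p = 0.971) and 0.048 at 6 weeks (0.038 without the array labelled 6 week sham mouse 2). It was also dim, with Cy5 above the threshold in 35 arrays and Cy3 in 29. The brighter probe of Il6st, above the threshold in both channels of all 39 arrays, had group means of 1.08 to 1.21 and a log2 fold change of 0.030 at 12 weeks (95% confidence interval -0.16 to 0.22). The second Il6st probe was above the threshold in 20 arrays in Cy5 and in 8 in Cy3, and its log2 fold change of -0.17 at 12 weeks had an interval of -0.67 to 0.33. The intervals of the 2 probes overlapped.

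Osmr, the chain that pairs with Il6st for oncostatin M, was higher on average in smoke at both durations but did not pass with the settings used here. It passed at 12 weeks in 1 of 14 other settings, with array weights (log2 fold change 0.52, adjusted p = 0.0223, limma). Its log2 ratios in 12 week smoke were -0.24, 0.26, 0.19 and 0.58, against -0.32, -0.34, -0.31, 0.018 and -0.22 in 12 week sham. In 6 week smoke they were 0.43, 0.28, 0.052, 0.46 and 0.29, against -0.65, 0.36, -0.18, 0.029 and 0.15 in 6 week sham. The groups overlapped at both durations, at 12 weeks through smoke mouse 1. The log2 fold change was 0.49 at 12 weeks (95% confidence interval 0.21 to 0.76, adjusted p = 0.135, limma). At 6 weeks it was 0.41 (0.15 to 0.67, adjusted p = 0.330, limma), and 0.47 without the array labelled 6 week sham mouse 2 (adjusted p = 0.186). Within runs Osmr was higher in smoke in 4 of 4 at each duration, by 0.078 to 0.80 at 12 weeks and 0.023 to 1.08 at 6 weeks.

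Stat3, the transcription factor of the pathway, showed no difference that passed. Its log2 ratios were 1.02, 1.30, 1.16 and 1.18 in 12 week smoke and 1.03, 1.15, 0.95, 0.89 and 0.98 in 12 week sham, and the groups overlapped. The log2 fold change was 0.15 at 12 weeks (95% confidence interval -0.085 to 0.38, adjusted p = 0.766, limma) and 0.070 at 6 weeks (0.021 without the array labelled 6 week sham mouse 2). The probe was above the threshold in both channels of all 39 arrays, and group means spanned 0.91 to 1.16. The array measures transcript and not the phosphorylated protein.

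Socs3, the feedback inhibitor that binds Il6st, was higher in smoke at 12 weeks. Its log2 ratios were 0.036, 0.49, 0.36 and 0.15 in 12 week smoke and -0.44, -0.54, -0.81, -0.73 and -0.23 in 12 week sham. All 4 smoke mice lay above 0 and all 5 sham mice below it. The probe was bright, above the threshold in both channels of all arrays. The log2 fold change was 0.83 (standard error 0.13, adjusted p = 0.000638, limma), and within runs 1 to 4 it was 0.48, 1.17, 0.38 and 1.03.

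At 6 weeks Socs3 did not pass. Its log2 ratios were -0.35, 0.18, -0.077, -0.13 and 0.34 in 6 week smoke and -0.96, 0.068, -0.53, -0.61 and -0.19 in 6 week sham. The groups overlapped through smoke mouse 1 and sham mice 2 and 5. The log2 fold change was 0.43 (95% confidence interval 0.17 to 0.68, adjusted p = 0.278, limma) and 0.53 without the array labelled 6 week sham mouse 2 (adjusted p = 0.0508). By group mean Socs3 was highest in 12 week smoke (0.26 ± 0.20, SD, n = 4), then in 6 week smoke (-0.0070 ± 0.27, SD, n = 5), and the other 6 groups lay between -0.67 and -0.44.

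Socs1, a related inhibitor that acts on the Janus kinases themselves, did not pass at either duration. Its log2 fold change was -0.11 at 12 weeks (95% confidence interval -0.42 to 0.20) and 0.32 at 6 weeks (0.024 to 0.61, adjusted p = 0.541, limma). Without the array labelled 6 week sham mouse 2 the 6 week value was 0.31 and its interval, -0.0040 to 0.62, included 0. Exposure run accounted for 42.0% of the variance of Socs1 over the 39 arrays, against 9.37% of that of Socs3, and group for 28.9% and 68.2% after run. Without that array the run shares were 44.9% and 10.3% and the group shares 25.9% and 72.1%. For differences among the sham groups no probe of the set passed. With all arrays Socs1 alone had an unadjusted p under 0.05 (limma, adjusted p = 0.194), where 12.1% of all probes did. Without that array Socs1 and Bcl3 did (adjusted p = 0.267 and 0.265, limma), where 11.9% of all did.

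**Figure D3:**
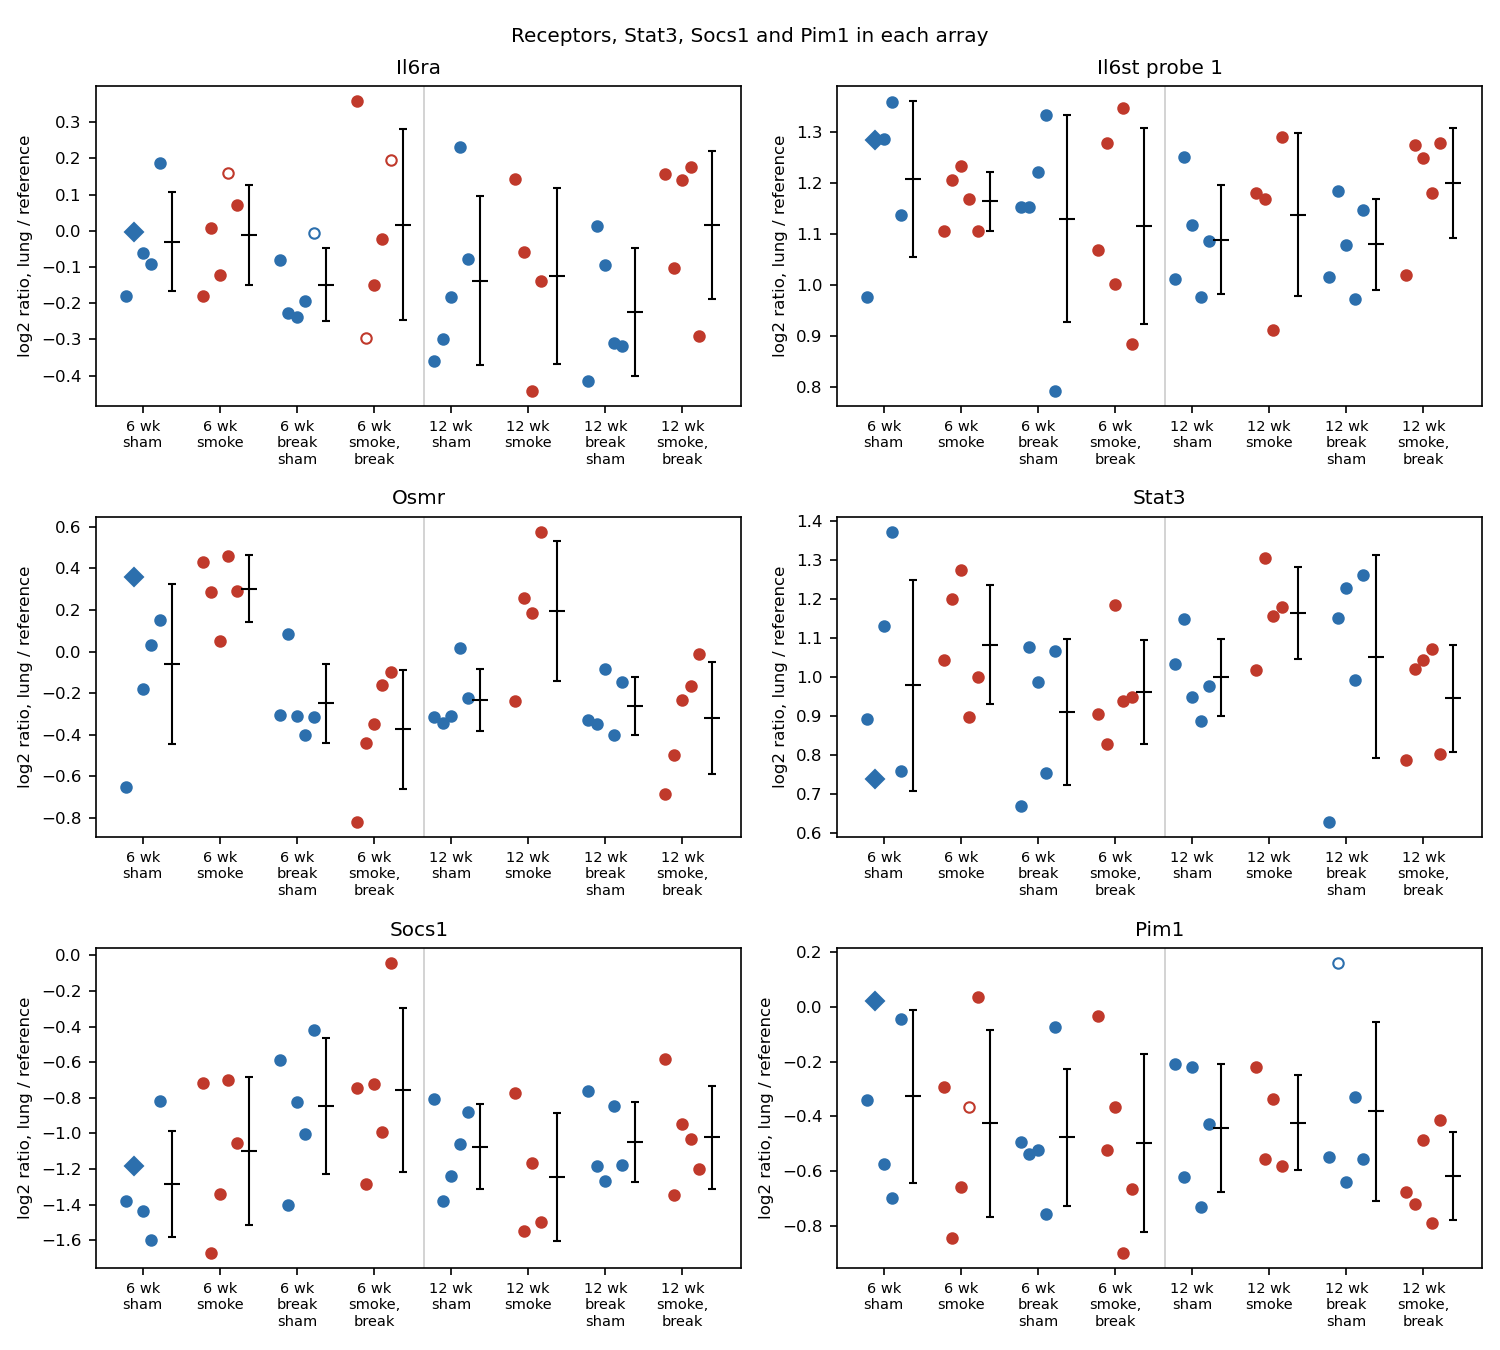
The log2 ratio of lung over reference (y axes) of the receptor chains, Stat3, Socs1 and Pim1 in the 39 arrays by group (x axes), with points, diamond and bars as in the plot of Il6, Socs3 and Bcl3. Smoke and sham overlap in every group pair, and the mean of Osmr is highest in 6 week smoke and 12 week smoke.

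Bcl3, a nuclear member of the I-kappaB family that can be induced through Stat3, was high in every array of the smoke groups. Its log2 ratios were 0.59, 1.18, 0.55 and 0.58 in 12 week smoke and -0.45, -0.22, -0.66, -0.16 and -0.36 in 12 week sham. In 6 week smoke they were 0.36, 0.49, 0.23, 0.68 and 0.69, and in 6 week sham -0.26, 0.81, -0.51, -0.49 and -0.19, where 0.81 is the array labelled 6 week sham mouse 2. The 9 arrays of the smoke groups (0.23 to 1.18) lay above all of the other 29 arrays (-0.66 to 0.18) and on both sides of that array. The share of all probes with such a gap is not given here. For Socs3, 4 of those 29 arrays lay at or above the lowest smoke array, and for Il6, 22 of them did.

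Bcl3 at 12 weeks rose by 1.14 on the log2 scale (standard error 0.16, limma's adjusted p = 9.49e-05), and within runs 1 to 4 it was 1.04, 1.21, 0.94 and 1.39. At 6 weeks it was 0.62 (standard error 0.15, adjusted p = 0.132). Of the 10 probes none passed at 6 weeks, where 0.0569% of all probes rose. At an unadjusted p under 0.05 there were 4 of the 10 and 8.41% of all probes (limma), and without the array labelled 6 week sham mouse 2 3 of the 10 and 9.23% of all. Without the array labelled 6 week sham mouse 2, Bcl3 rose by 0.81 (standard error 0.12, adjusted p = 0.000192), the sole probe of the set to do so, where 0.154% of all probes rose. It was then also higher without overlap, as 1.28% of all probes were. At 12 weeks the same 3 probes rose without that array, where 0.421% of all did.

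Pim1, a survival kinase whose gene Stat3 can induce, did not pass. Its group means were -0.62 to -0.33, with log2 fold changes of 0.042 at 12 weeks (95% confidence interval -0.30 to 0.38) and -0.069 at 6 weeks (-0.39 to 0.25), or 0.0024 at 6 weeks without the array labelled 6 week sham mouse 2 (-0.33 to 0.34). Of its variance over the 39 arrays, group accounted for 8.88% after run, against 69.8% for Bcl3, 68.2% for Socs3, 54.4% for Osmr and 46.9% for Il6. Without that array these shares were 7.69%, 81.0%, 72.1%, 57.2% and 48.1% in the same order. As a set, 8 of the 10 probes were above 0 at 12 weeks with a median log2 fold change of 0.094, where 51% of all probes were above 0 with a median of 0.0054. At 6 weeks 6 of 10 were above 0 with a median of 0.059, against 52.8% and 0.012 for all probes. Without that array 7 of 10 were above 0 at 6 weeks with a median of 0.030, against 52.5% and 0.011.

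**Figure D4:**
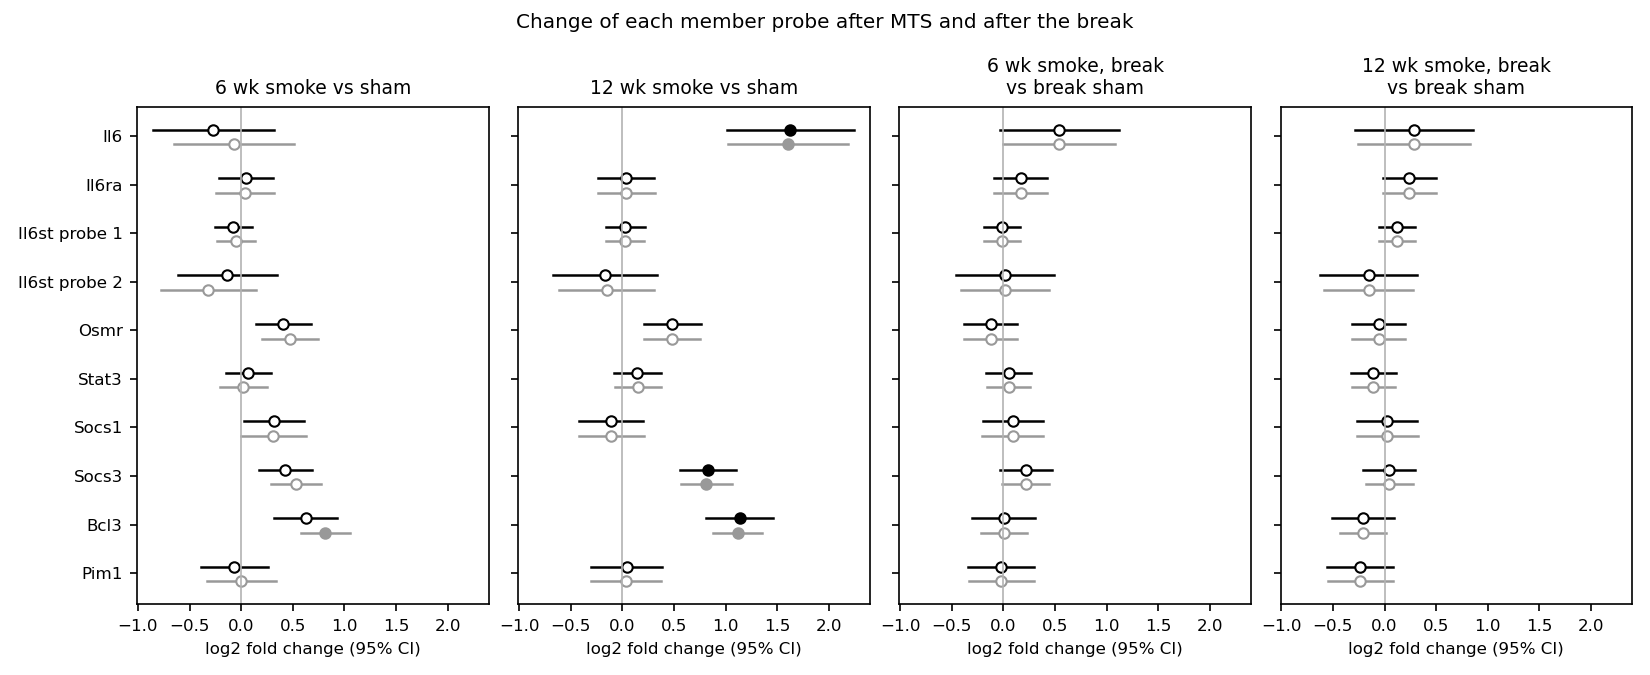
Log2 fold changes of the 10 probes (rows) with 95% confidence intervals in 4 comparisons (panels), in black with all arrays and in grey without the array labelled 6 week sham mouse 2. Filled points have an adjusted p under 0.05: Il6, Socs3 and Bcl3 at 12 weeks, and Bcl3 at 6 weeks in grey.

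Whether the smoke effect grew from 6 to 12 weeks was tested as a difference of the 2 effects. No probe of the set passed, and 0% of all probes were called as larger at 12 weeks. At an unadjusted p under 0.05 there were 4 of the 10 with all arrays and 1 without the array labelled 6 week sham mouse 2 (limma), against 4.86% of all probes in both cases. The difference of the log2 fold changes was 0.51 for Bcl3 (95% confidence interval 0.071 to 0.95, adjusted p = 0.971, limma) and 0.30 without the array labelled 6 week sham mouse 2 (-0.034 to 0.64). For Il6 the interval stayed above 0 with all arrays and without that array (0.86 to 2.50), and the adjusted p was 0.593 and 0.590. For Socs1 the difference was -0.42 (-0.85 to -0.00091) with all arrays, and without that array its interval, -0.86 to 0.028, included 0. With any 1 array of these groups left out the difference of Socs3 was 0.28 to 0.50, and it passed in none of these fits.

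Setting the smoke groups against the mean of all 4 sham groups gave narrower intervals. These groups include the break shams, whose age and time since restraint may differ from those of the smoke groups. Over all probes 275 were called at 6 weeks and 258 at 12 weeks, against 11 and 76 with the matched sham group. These comparisons share sham arrays with those above and are no separate evidence. At 6 weeks 3 probes then rose, where 0.985% of all probes did: Osmr by 0.52 (adjusted p = 0.00426), Socs3 by 0.53 (adjusted p = 0.00264) and Bcl3 by 0.65 (adjusted p = 0.00196, limma). At 12 weeks 4 rose, where 0.809% of all did: Il6 by 1.24 (adjusted p = 0.00568), Osmr by 0.46 (adjusted p = 0.0260), Socs3 by 0.82 (adjusted p = 2.67e-05) and Bcl3 by 0.93 (adjusted p = 5.29e-05, limma). The same probes rose without the array labelled 6 week sham mouse 2. The Osmr call at 6 weeks was lost without 6 week smoke replicate 1 (adjusted p = 0.0523). At 12 weeks the Osmr call was lost without any of 12 week smoke replicates 2, 3 and 4 (adjusted p up to 0.225), and that of Il6 without replicate 1 (log2 fold change 1.08, adjusted p = 0.0873). The 12 week call of Osmr was also lost with median centring, without the run term, with run as a random block and with only the groups compared in the fit (adjusted p of 0.0644 to 0.213).

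After 6 weeks without MTS, no probe of the set passed against break sham at either duration. Over all probes 0% rose after 6 weeks of MTS and the break, and 0% after 12. No probe of the set had an unadjusted p under 0.05 either (limma). Of all probes, 4.32% were under it after 6 weeks of MTS and the break, and 6.43% after 12. Il6 in 6 week smoke and break was -2.28, -0.19, -0.69, -1.09 and -0.88, against -1.63, -1.18, -1.57, -1.70 and -1.76 in 6 week break sham. Of the 5 smoke mice 4 lay above the highest sham mouse, and mouse 1 lay below all of them. The difference had a 95% confidence interval of -0.035 to 1.11, and within runs it was -0.65 in run 1 and 0.61 to 0.98 in runs 2 to 5. In 12 week smoke and break Il6 was -1.89, -1.09, -0.95, -0.89 and -0.91, against -2.19, -0.94, -1.35, -1.53 and -1.13 in 12 week break sham, with an interval of -0.29 to 0.86.

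Socs3 and Bcl3 did not pass against break sham either. Socs3 in 6 week smoke and break was -0.68, -0.36, -0.42, -0.51 and -0.31, against -0.76, -0.61, -0.58, -0.72 and -0.69 in 6 week break sham. All of these smoke mice but mouse 1 lay above every sham mouse. Socs3 was higher in smoke within 5 of 5 runs, by 0.079 to 0.38, and its interval was -0.035 to 0.47. At 12 weeks the interval of Socs3 was -0.21 to 0.30. For Bcl3 the intervals were -0.30 to 0.30 after 6 weeks and -0.51 to 0.094 after 12 weeks of MTS and the break.

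The difference between the smoke effect and the effect left after the break was tested itself. At 12 weeks 1 probe of the set passed, where 0.0683% of all were called as larger before the break: for Bcl3 the difference was 1.35 on the log2 scale (95% confidence interval 0.90 to 1.79, adjusted p = 0.00427, limma). For Socs3 it was 0.78 (0.41 to 1.15, adjusted p = 0.0991) and for Il6 1.34 (0.50 to 2.18, adjusted p = 0.341). Without the array labelled 6 week sham mouse 2, Socs3 passed too (0.77, adjusted p = 0.0383, limma), where 0.131% of all were called. At 6 weeks no probe of the set passed with all arrays, with 2 of the 10 at an unadjusted p under 0.05 (limma) and 6.54% of all probes, or 2 and 7.24% without that array. Bcl3 then had a difference of 0.62 (adjusted p = 0.662) with all arrays and 0.81 (adjusted p = 0.0318) without that array, where 0.0626% of all were called. With median centring in place of loess, the 12 week difference of Bcl3 was 1.10 and did not pass (adjusted p = 0.0721).

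**Figure D5:**
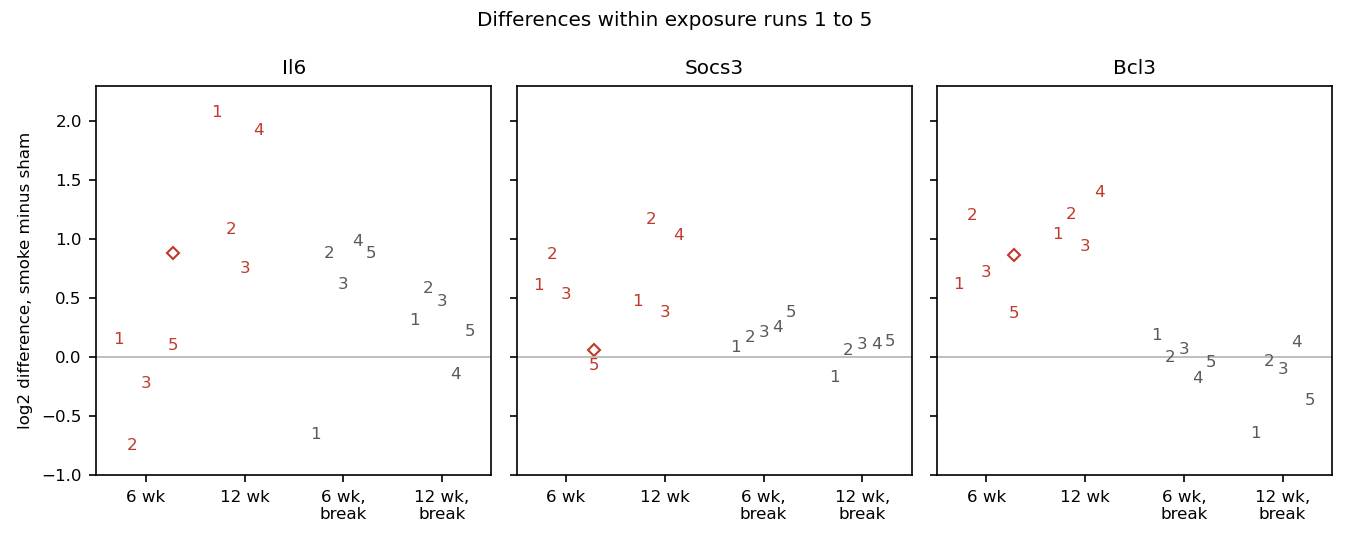
Differences of log2 ratio, smoke minus sham (y axes), within exposure runs 1 to 5, shown as digits, for Il6, Socs3 and Bcl3 in 4 comparisons (x axes). The open diamond is run 5 at 6 weeks without the array labelled 6 week sham mouse 2. At 12 weeks every run lies above 0 for each gene, and after the break the runs of Bcl3 lie on both sides of 0.

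In each array, deviations from the group and run means were compared between Il6 or Socs3 and the other members, 15 relations in all over 39 arrays. Il6 and Socs3 did not deviate together (Pearson r = -0.018, permutation p = 0.914, adjusted p = 0.950, Spearman rho = -0.069). Without the 2 arrays farthest from the median r was 0.037, and without the array labelled 6 week sham mouse 2 it was -0.26 (permutation p = 0.124, adjusted p = 0.445). The pair of Socs3 and Bcl3 passed (Pearson r = 0.52, permutation p = 0.00168, adjusted p = 0.0252), with a Spearman rho of 0.39 that did not (permutation p = 0.0151, adjusted p = 0.227). Without the 2 farthest arrays r was 0.33. Without the array labelled 6 week sham mouse 2 it was 0.26 (permutation p = 0.114, adjusted p = 0.445), which did not pass.

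The genes whose run-centred log2 ratios followed Socs3 most closely over the 39 arrays were Cbr3 (Pearson r = 0.87), Cyp1b1 (0.87), Akr1b8 (0.86), Txnrd1 (0.86) and Nqo1 (0.85). Bcl3 was the 10th (0.83). Without the array labelled 6 week sham mouse 2 the first 5 were the same, and Bcl3 was not among the first 10. Those most like Il6 were Rhou (0.67), Psat1 (0.64), Sbk1 (0.63), Lonrf3 (0.61) and Pno1 (0.59). Without that array Rhou, Sbk1 and Psat1 were still among the first 5 for Il6. These values describe arrays that share groups and a reference.

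Of 57 other genes of the pathway on the list, 54 had a probe and 52 passed the filter, and none rose or fell at 6 or 12 weeks or after the break (limma). At an unadjusted p under 0.05 there were 9 at 6 weeks, 8 at 12 weeks and, after the break, 1 and 4 in that order (limma). Of all probes, 8.41%, 9.37%, 4.32% and 6.43% were under it in these comparisons. At 12 weeks 28 of the 52 were above 0 with a median log2 fold change of 0.053, and at 6 weeks 23 with a median of -0.039, or 19 with a median of -0.027 without the array labelled 6 week sham mouse 2. By role at 12 weeks, 3 of 7 other ligands, 4 of 4 receptors, 3 of 8 kinases and phosphatases, 1 of 5 other Stat factors, 3 of 8 other inhibitors and 14 of 20 Stat3 target genes were above 0. The target genes ranged from -0.38 to 0.54 with a median of 0.15. Of all probes 51% were above 0 at 12 weeks and 52.8% at 6 weeks, or 52.5% at 6 weeks without that array. Jak1, a kinase of the receptor complex, had -0.060 at 12 weeks (adjusted p = 0.935) and 0.30 at 6 weeks (adjusted p = 0.356, limma), or 0.23 at 6 weeks without that array. Bcl2l1 and Mcl1, which encode proteins that hold back apoptosis, had 0.060 and 0.10 at 12 weeks (adjusted p = 0.959 and 0.883, limma). Stat4, named after its values were seen, had -0.71 at 12 weeks (adjusted p = 0.0702, limma) and fell past the threshold under 5 other settings and without each of 2 arrays.

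Other lists were set beside the 3 genes that rose at 12 weeks. Of 13 acute phase genes, 13 known inducers of Il6 and 11 immediate early genes none passed at 12 weeks (limma), with 1, 2 and 1 of them at an unadjusted p under 0.05 and medians of 0.12, 0.11 and 0.18. In that comparison 9.37% of all probes had an unadjusted p under 0.05. Without the array labelled 6 week sham mouse 2, Ier3, an immediate early gene, rose by 0.55 (adjusted p = 0.0350, limma). Of 9 macrophage markers, 7 of them above the Cy5 threshold in all arrays, 8 were above 0 with a median log2 fold change of 0.63, 5 at an unadjusted p under 0.05 and none past the adjusted threshold (limma), and their mean log2 ratio was 1.59 to 1.93 in 12 week smoke and 0.89 to 1.60 in 12 week sham. At 6 weeks 9 of 9 were above 0 with a median of 0.45, and their mean log2 ratio was 1.59 to 2.38 in smoke and 1.03 to 1.53 in sham. Without the array labelled 6 week sham mouse 2 9 of 9 were above 0 with a median of 0.47, and sham was 1.03 to 1.36. Of 7 neutrophil markers, 2 of them above the Cy5 threshold in all arrays, 3 were above 0 at 12 weeks, with mean log2 ratios of 0.46 to 1.93 in smoke and 0.98 to 1.61 in sham. Of 7 fibroblast markers 2 fell at 12 weeks, the collagen gene Col3a1 by 0.80 (adjusted p = 0.0275) and the growth factor receptor gene Pdgfrb by 0.61 (adjusted p = 0.0266, limma). Over all probes 0.0569% fell. Of the 7 markers 3 had an unadjusted p under 0.05 (limma) and 1 was above 0. The mean log2 ratio of the fibroblast markers was -0.31 to -0.025 in 12 week smoke and -0.14 to 0.40 in 12 week sham. None of 5 T cell, 5 B cell, 7 endothelial and 8 lung epithelium markers passed at 12 weeks (limma), with 0, 2, 0 and 1 at an unadjusted p under 0.05. Whether any of these cells account for the changes of Il6, Socs3 and Bcl3 was not tested.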

How the data were processed

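RNA of 39 lungs was hybridized with universal mouse reference RNA to Agilent oligonucleotide arrays, and the authors scanned them and quantified spots with ImaGene. Each deposited scanner file gives, for both dyes, the raw intensity of a spot and of its surroundings. A second deposited table gives the authors' log2 ratios after global LOWESS, used here as an alternative (r = 0.975 to 0.996 per array). From spot and background medians, normexp (offset 50), loess within arrays and averaging of spots gave 1 log2 ratio per probe and array. Probes were kept where Cy5 exceeded the array's threshold (mean of the negative controls plus 3 SD, both after trimming 5% at each end) in 4 or more arrays of any group.

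All arrays entered 1 fit in limma 3.58.1 (R 4.3.3) with 8 groups and 5 runs read from the sequence of exposure labels, and p-values were adjusted by Benjamini-Hochberg. Run 4 held no 6 week sham and run 5 no 12 week smoke. The study's own model was blocked on dates of hybridization and exposure, so the block may differ from it. Correlations used 100000 permutations (two-sided, scipy 1.17.1). They number 15 and not 17 as planned, since Lif had no probe. The fit was tested on simulated data. The number of arrays per group limits the precision.

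The members and lists were chosen with earlier results of these data known. Named are all member probes, Jak1, Bcl2l1 and Mcl1, other listed genes that passed (at most 10 of the pathway and 3 of each other list per comparison), Cyp1a1 and Cyp1b1, and the 5 genes most like Il6 and Socs3. Alternatives covered background correction, normalization, spot means, marked spots, a Cy5 floor, the filter, the run term, array weights, the groups in the fit, the threshold and leaving out each array. RT-PCR and protein data were not analysed here.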

Additional observations from a re-analysis of the deposited data

Results flagged for a closer look

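In groups of 4 and 5 mice, an array was singled out where its gap to the nearest array of its group was above Dixon's 95% critical value. Of 80 groups of member values 4 held such an array, and chance gives about 1 in 20. Il6 in 12 week smoke and break mouse 1 was -1.89, the lowest of its group, with the nearest at -1.09. Osmr in 6 week break sham mouse 2 was 0.084, the highest, with the nearest at -0.31. Bcl3 in 12 week smoke mouse 2 was 1.18, the highest, with the nearest at 0.59. Bcl3 in the array labelled 6 week sham mouse 2 was 0.81, the highest, with the nearest at -0.19. The effect of 12 weeks of MTS on Bcl3 was larger than the effect left after the break by 1.35 on the log2 scale (limma, adjusted p = 0.00427).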

How the results depend on the processing

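By mouse number, no paired analysis was possible because the numbers were given in accession order. The exposure runs, which are stretches of the sequence of exposure labels, linked arrays of different groups and were a term of the fit. Differences within runs are given in the text. Without the run term the counts of member probes that passed were the same in each comparison except 12 week smoke against the mean of the 4 sham groups, where 4 became 3. The count of member probes that passed at 12 weeks, 3, fell to 0 with only the groups compared in the fit and was 3 to 3 with each array left out. With marked spots left out Il6 no longer passed at 12 weeks, and with array weights Osmr passed as well. At 6 weeks, 0 became 1 with marked spots left out and with array weights, and 0 to 1 with each array left out. For the 12 week smoke effect minus that after the break, 1 became 0 with median centring and 2 with marked spots left out, with array weights and at a threshold of 0.1, and 1 to 2 with each array left out. The 6 week version, 0, became 0 to 1 with each array left out. Other pathway genes that passed at 12 weeks, 0, became 1 with no background subtraction, median centring, marked spots left out, Cy5 floored at the threshold, run as random block and at a threshold of 0.1, 3 with array weights, and 0 to 1 with each array left out. Against the mean of the 4 sham groups, leaving out arrays gave 2 to 3 member probes at 6 weeks and 3 to 4 at 12. The cause of these changes was not tested.

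Of 2740 values of single members under all alternatives, 2551 kept their sign and side of the threshold, 165 changed sign without passing in either case (their main values were at most 0.28 in size), 10 newly passed, 14 no longer passed and none that had passed changed sign. Among those that newly passed was Osmr at 12 weeks with array weights, where 4 member probes passed in place of 3. The log2 fold change at 12 weeks was 0.98 to 2.09 for Il6 over 14 settings (12 past the threshold), 0.68 to 0.87 for Socs3 (13) and 1.00 to 1.16 for Bcl3 (13). Faint spots limit Il6, Il6ra, Pim1 and the dimmer Il6st probe.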
